A study of Mus musculus with 8 samples.

Results

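Glycogen metabolism was followed through liver maturation by the messenger RNAs of 9 genes, Gys1, Gys2, Gbe1, Ugp2, Pygl, Phka2, Phkg2, Ppp1r3b and Ppp1r3c. They were taken by symbol from a list of glycogen synthesis and breakdown genes that sets no threshold on any measured value, although the list was drawn up with earlier results of these data known, and are 9 of the 22059 genes in the files. All 9 passed the filter on low counts, which left 17081 genes for testing. The study sequenced poly(A) RNA of whole liver from FVB mice, an inbred strain given as FVB/NJ in the Methods, at embryonic day 18 (E18), postnatal day 14 (P14), postnatal day 28 (P28) and in adults of 3 months, to ask which gene programmes mark the maturation of the organ. Each of the 4 stages had 2 samples, and the labels name no allele, transgene or treatment at any stage. Stage was thus the only labelled factor compared. The Methods give the FVB/NJ adults of 3 months as male and name no sex for E18, P14 or P28 livers. Whether sex differed between stages is thus not known. Whole liver holds hepatocytes, blood-forming cells, endothelial cells and others together, so a level is that of the mixed tissue.

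Glycogen is the branched store of glucose that liver builds after a meal and breaks down in fasting to keep up blood glucose. Synthesis runs from glucose 1-phosphate through UDP-glucose, made by the pyrophosphorylase Ugp2, to chains that glycogen synthase (Gys1, the muscle form, and Gys2, the liver form) lengthens and the branching enzyme Gbe1 branches. Breakdown runs through glycogen phosphorylase, of which Pygl is the liver form, and phosphorylase is switched on by phosphorylase kinase, whose liver regulatory and catalytic subunits are Phka2 and Phkg2. Ppp1r3b and Ppp1r3c bring protein phosphatase 1 to the glycogen particle, where it activates synthase and inactivates phosphorylase.

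Each sample had from 68154675 to 106055723 reads on genes. The duplicates of every stage differed by more than read sampling allows (chi-square per degree of freedom 52 to 98.8), so each was kept as a separate sample. The samples were scaled by TMM, which takes the bulk of genes as stable, and the factors were 1.598 and 1.539 at E18 but lay within 0.8466 to 0.8875 after birth. Without it, at library size alone, the median gene moved by a further -0.87 on the log2 scale from E18 to P14 and by a further -0.85 from E18 to adult. Changes from E18 below are therefore relative to the TMM reference, and a member whose sign depends on it is named as such. Levels are given below as CPM, the count relative to the TMM-scaled library total, and levels of different genes are compared as RPKM, which is also divided by transcript length but not TMM-scaled. The summed RPKM of 10 hepatocyte markers was 36800 to 37500 at E18, 108000 in both P14 samples, 81400 to 83100 at P28 and 53400 to 64800 in adult, with none of the markers at 0. The sum of 10 erythroid markers was 14300 to 18100 at E18 and at most 91 later, and that of 8 myeloid markers was 2010 to 2470 at E18, 225 to 242 at P14 and at most 7.56 from P28. The erythroid markers Hbb-b1 and Hbb-b2 had near-identical counts in every sample, such as 272039 and 272035 in E18 replicate 1. They are thus not 2 separate measurements, and added 5280 and 5420 RPKM on average to the E18 sum. All 10 erythroid and all 8 myeloid markers fell over 3-fold from E18 to adult, and 10 of 10 hepatocyte markers rose, 9 of them over 3-fold. The other was Alb, which dominates the hepatocyte sum, at 0.59 on the log2 scale with TMM and -0.26 and not called at library size alone. The sum of 8 pancreatic acinar markers was 279 and 617 at E18 and 21.3 to 87.1 later, and nearly all of the sum from P28 on was Cela1, with stage means of 15.7 RPKM at E18, 83.3 at P28 and 80.8 in adult. For 6 sinusoidal endothelial markers the sum was 64.7 to 74.8 at E18 and 144 to 146 at P14. It was 79.9 to 84.1 at P28 and 63.1 to 72.6 in adult. The sums of Kupffer cell, stellate cell and bile duct markers were 154 to 216, 104 to 125 and 34.9 to 45.9 at E18. In adult they were 82.8 to 89.5, 91.1 to 91.8 and 27 to 36.4. In bulk samples, fewer cells of a type and less RNA per cell cannot be told apart. The part of these cell types in the results was not tested.

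Sequence upstream of the RefSeq start was available for 7 of the 9 members in the table used, in 8 windows of 250 bases, since Ugp2 has 2 starts (GRCm38.p6). Gys2 and Ppp1r3b had no entry. The windows that overlapped no annotated exon are printed, because they set upstream sequence of Gbe1 and Ugp2, members that rose at every step, beside that of Phka2, whose level moved least from E18 to adult with TMM scaling. Each is given 5′ to 3′ in the direction of the gene and ends at the base before the start, with matches to any of 5 motifs in capitals. The windows are Gbe1 on the plus strand at chr16:70313699-70313948, Ugp2 on the minus strand at chr11:21370630-21370879, and Phka2 on the plus strand at chrX:160501912-160502161. The Ugp2 window belongs to the inner start of this gene and lies within the gene, which reaches to 21371201. That start is 152 bases from the nearest GENCODE start. The window of the outer Ugp2 start overlapped an exon and is not printed.
Gbe1: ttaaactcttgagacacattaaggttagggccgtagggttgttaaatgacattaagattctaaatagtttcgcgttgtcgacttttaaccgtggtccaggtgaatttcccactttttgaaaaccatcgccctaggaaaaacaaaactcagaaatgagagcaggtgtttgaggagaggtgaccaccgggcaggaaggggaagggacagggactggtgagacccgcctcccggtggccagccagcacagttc
Ugp2: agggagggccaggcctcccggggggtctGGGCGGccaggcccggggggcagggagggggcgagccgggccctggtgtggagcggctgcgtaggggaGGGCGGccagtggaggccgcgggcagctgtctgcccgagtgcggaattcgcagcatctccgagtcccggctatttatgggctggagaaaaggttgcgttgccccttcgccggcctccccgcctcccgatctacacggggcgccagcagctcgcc
Phka2: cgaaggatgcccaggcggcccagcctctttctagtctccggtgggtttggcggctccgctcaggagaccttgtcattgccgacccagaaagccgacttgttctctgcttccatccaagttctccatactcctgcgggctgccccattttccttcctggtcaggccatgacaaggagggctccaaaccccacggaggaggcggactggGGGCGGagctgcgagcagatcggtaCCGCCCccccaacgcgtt

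The motifs searched on both strands were the TATA box (TATAAA), the CCAAT box (CCAAT), the GC box (GGGCGG), the E-box (CACGTG) and the cAMP response half-site (TGACG), of which the last 2 can share letters. Among 32851 mouse windows of this length they were present in 12.4%, 33.8%, 32.7%, 6.02% and 17.8%. The Gbe1 window held none of these letters. The printed Ugp2 and Phka2 windows each held 2 GC boxes and nothing else. Among the members whose windows reach into an exon, Gys1 held 4 CCAAT boxes and 2 GC boxes, Phkg2 held 3 CCAAT boxes and 1 GC box, the other Ugp2 start held 1 CCAAT box and 1 GC box, and Pygl held 3 GC boxes and a TGACG match 44 bases before the start. Ppp1r3c alone held an E-box, 104 bases before its start, with a CCAAT box at 124 bases. A match describes the letters and no binding was measured.

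From E18 to adult, 7 of the 9 glycogen genes rose, Gys1 fell and Phka2 did not pass the test (false discovery rate below 0.1 in the quasi-likelihood test of edgeR). Of all genes tested, 39.5% rose and 43.8% fell. Past 3-fold as well, 6 members rose and 1 fell, against 16.8% and 23.8% of all genes. The median log2 fold change was 1.86 over the members and -0.11 over all genes. At library size alone, 6 members rose and 2 fell, where 22.1% of all genes rose and 64.9% fell. At that scaling 3 members rose over 3-fold, but the share of all genes past 3-fold was not counted.

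**Figure D1:**
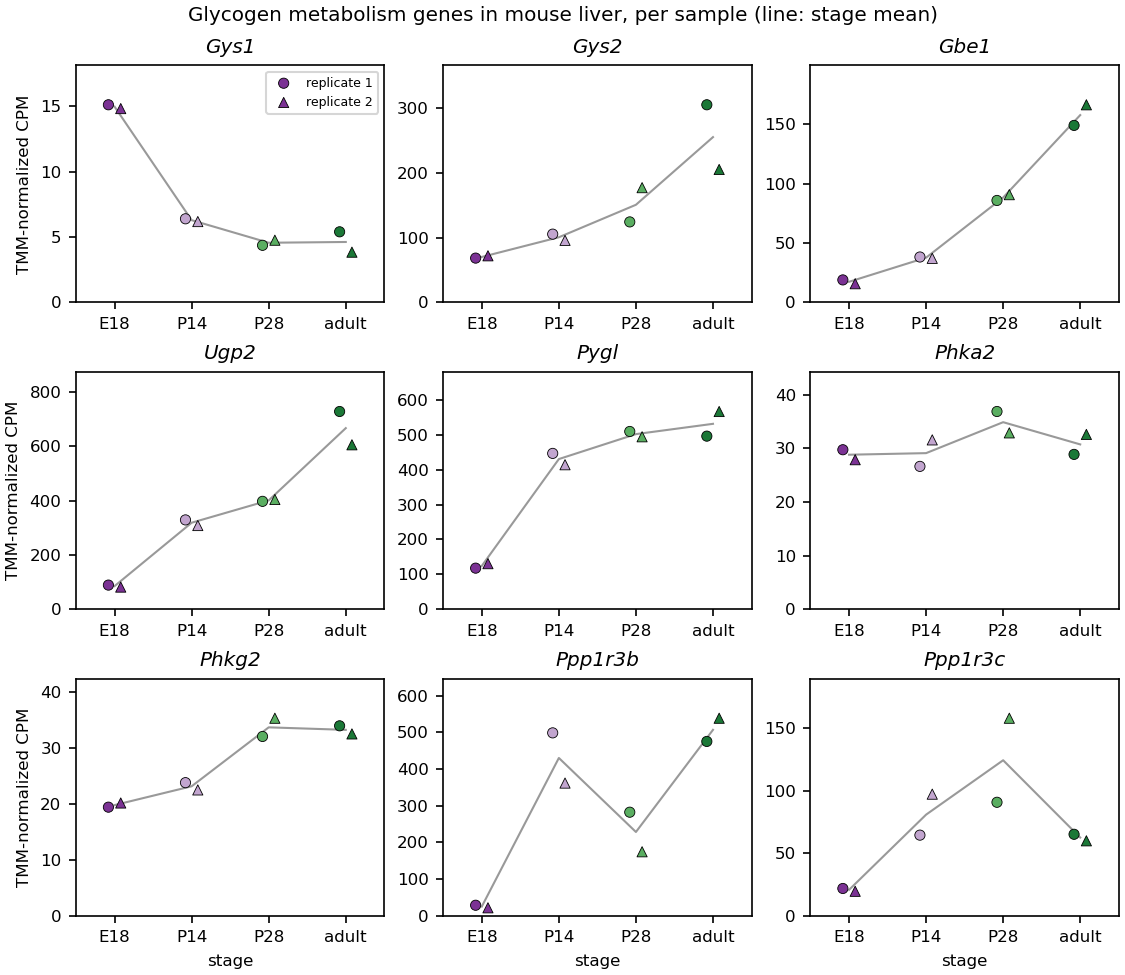
TMM-normalized CPM of the 9 genes (vertical axis, linear from 0) in each liver sample at E18, P14, P28 and adult, with circles for replicate 1, triangles for replicate 2 and a line through the stage means. Gbe1 and Ugp2 climb at every stage, Pygl levels off after P14, Gys1 falls from 15 CPM at E18 to 4.62 CPM in adult, and Ppp1r3b dips at P28 where Ppp1r3c peaks.

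Most members had risen by P14, when mice still suckle. From E18 to P14, 7 members rose and 1 fell, against 38.2% and 39.3% of all genes, and past 3-fold 4 rose and 0 fell, against 13.8% and 15.4%. The members past 3-fold were Ppp1r3b, Ppp1r3c, Ugp2 and Pygl, and the member median was 1.12 against -0.03 over all genes. At library size alone, 5 members rose and 3 fell, against 18.6% and 66.8% of all genes. Ppp1r3b was then the only member up over 3-fold, with no share of all genes past 3-fold counted at that scaling. From P14 to P28, 6 members rose and 2 fell, against 25.2% and 28.6% of all genes, with a median of 0.33 against -0.04. None passed 3-fold in that interval, which 3.61% of all genes did upwards and 5.98% downwards. These counts rested on single samples, with 8 members changed in all, 4 without P14 replicate 1 or without P28 replicate 2, and 5 without P14 replicate 2 or without P28 replicate 1. The share of all genes called fell in the same fits, to 17.6% to 19.4% up and 20.6% to 23.3% down. From P28 to adult, 4 members rose and 1 fell, against 7.94% and 13.2% of all genes, with a median of 0.08 against 0, and none passed 3-fold, against 0.767% upwards and 2.24% downwards. The 5 calls of this interval were 3 without adult replicate 1, where 3.51% of all genes rose and 7.75% fell. The 4 comparisons share samples and are not independent of each other.

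Ugp2, which makes the UDP-glucose that glycogen synthase uses, lies on chromosome 11 (21321138 to 21371201, minus strand, GRCm38, as for all positions below). The E18 samples had 88.6 and 81.3 CPM, the P14 samples 329 and 308, the P28 samples 398 and 404, and the adult samples 729 and 606. No stage overlapped with the one before. The steps were 1.91 (standard error 0.12, edgeR adjusted p = 8e-07), 0.33 (0.12, edgeR adjusted p = 0.043) and 0.73 (0.12, edgeR adjusted p = 0.0043) on the log2 scale, and the whole rise was 7.86-fold. The first step was 1.04 and the whole rise 2.12 on the log2 scale at library size alone. The middle step lost its call when any 1 of the P14 or P28 samples was left out, with values of 0.28 to 0.38.

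Gys2, the synthase form of liver (chromosome 6, 142422613 to 142473109, minus strand), had 68.4 and 72 CPM in the E18 samples and 105.4 and 95.8 in the P14 samples. It reached 124 and 177 CPM at P28 and 305 and 205 in adult, so the later stages each had 1 sample well above the other. From E18 to adult it rose 3.64-fold (log2 1.86, standard error 0.21, edgeR adjusted p = 2.9e-05), and by 1.01 on the log2 scale at library size alone. The early step of 0.52 (standard error 0.20, edgeR adjusted p = 0.044) turned to -0.35 (edgeR adjusted p = 0.13) at library size alone, and in RPKM the mean went from 38.7 to 30.6. It also lost its call without either E18 sample or without P14 replicate 1. The steps of 0.58 to P28 (edgeR adjusted p = 0.043) and of 0.76 to adult (edgeR adjusted p = 0.039) were smaller without P28 replicate 2, at 0.30, and without adult replicate 1, at 0.44, and neither value passed. The former also lost its call without P14 replicate 2 (0.51) and the latter without P28 replicate 1 (0.53).

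Gys1, the form named for muscle (chromosome 7, 45434844 to 45456619, plus strand), went the other way. Its CPM was 15.1 and 14.8 in the E18 samples, 6.39 and 6.18 by P14, 4.36 and 4.76 by P28 and 5.4 and 3.84 in adults. The E18 samples lay above all others, and the adult pair straddled the P28 pair. The fall from E18 to adult was 3.24-fold (log2 -1.70, standard error 0.16, edgeR adjusted p = 1e-05), most of it complete by P14 (log2 -1.25, edgeR adjusted p = 9e-05). At library size alone both falls were larger. The further fall of 0.46 on the log2 scale to P28 (edgeR adjusted p = 0.044) did not pass without either P14 sample or without P28 replicate 1 (-0.49 to -0.41). Without adult replicate 2, the change from E18 to adult no longer passed 3-fold. From P28 to adult the value was 0.02 (standard error 0.17). The erythroid and myeloid marker sums given above fell over the same span, and the summed RPKM of 7 skeletal muscle markers was 3.33 to 3.85 at E18, 0.487 and 5.65 in the P14 samples and at most 0.231 later. The part of these cells in the Gys1 values was not tested.

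Gbe1, the branching enzyme (chromosome 16, 70313949 to 70569716, plus strand), had 18.9 and 15.8 CPM at E18 and 38.3 and 37.2 at P14. It had 85.9 and 90.8 at P28, and 149 and 167 in adult. The stages never overlapped, and each step passed the test, at 1.12, 1.23 and 0.84 on the log2 scale with standard errors of 0.11 (edgeR adjusted p = 1.5e-05, 4.5e-05 and 0.0016). The rise to adult was 9.1-fold (log2 3.19, edgeR adjusted p = 1.8e-08). At library size alone the first step was 0.25 and the whole rise 2.33 on the log2 scale. At P14 to P28 it was the member with the largest change, 2.34-fold, when Pygl had already made most of its log2 rise.

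Pygl, the phosphorylase that releases glucose 1-phosphate from glycogen (chromosome 12, 70190811 to 70231488, minus strand), rose early and then changed little. The E18 livers had 117 and 130 CPM, those of P14 had 447 and 414, those of P28 had 510 and 494, and adult livers had 496 and 567. From E18 to adult Pygl rose 4.29-fold (log2 2.10), with log2 values of 1.22 to 2.2 over the alternative fits listed below. From E18 to P14 it rose 3.47-fold (log2 1.80, standard error 0.11, edgeR adjusted p = 8.6e-07), and by 0.93 on the log2 scale at library size alone. The following steps were 0.22 (standard error 0.11, edgeR adjusted p = 0.13) and 0.08 (standard error 0.11, edgeR adjusted p = 0.68), and neither passed. The first of them passed under median-ratio scaling (0.26, edgeR adjusted p = 0.091), in DESeq2 (0.26, adjusted p = 0.056) and with P14 and P28 fitted alone (0.23, edgeR adjusted p = 0.04).

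The phosphorylase kinase subunits had the smallest changes of the 9 from E18 to adult with TMM scaling. Phka2, the regulatory alpha subunit (chromosome X, 160502166 to 160598878, plus strand), had 29.8 and 27.9 CPM in the E18 samples, 26.6 and 31.6 by P14, 36.9 and 32.9 by P28 and 28.9 and 32.6 in adults. The P28 pair lay just above all other samples, and the other stages overlapped. Its change from E18 to adult was 0.09 (standard error 0.12, edgeR adjusted p = 0.47) but -0.75 (edgeR adjusted p = 0.00032) at library size alone, so its direction depended on the scaling. The value of 0.26 from P14 to P28 (edgeR adjusted p = 0.096) lost its call in 7 of the 8 fits that left out a sample.

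Phkg2, the catalytic gamma subunit (chromosome 7, 127573340 to 127583307, plus strand), had 19.5 and 20.2 CPM in the E18 samples, 23.9 and 22.5 by P14, 32.1 and 35.4 by P28 and 34 and 32.6 in adults. No sample of E18 or P14 reached the P28 or adult values. The rise from E18 to adult was 1.68-fold (log2 0.75, standard error 0.09, edgeR adjusted p = 5.5e-05), whereas library size alone gave -0.10 (edgeR adjusted p = 0.33) and RPKM means were 17.9 at E18 and 16.4 in adult. From E18 to P14 the value of 0.23 (edgeR adjusted p = 0.049) became -0.64 (edgeR adjusted p = 0.00018) at library size alone, and it was 0.20 and did not pass without E18 replicate 1 or without P14 replicate 1. The step from P14 to P28, 0.54 (standard error 0.09, edgeR adjusted p = 0.0015), was 0.53 at library size alone and passed there too. Those stages have near-equal TMM factors.

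**Figure D2:**
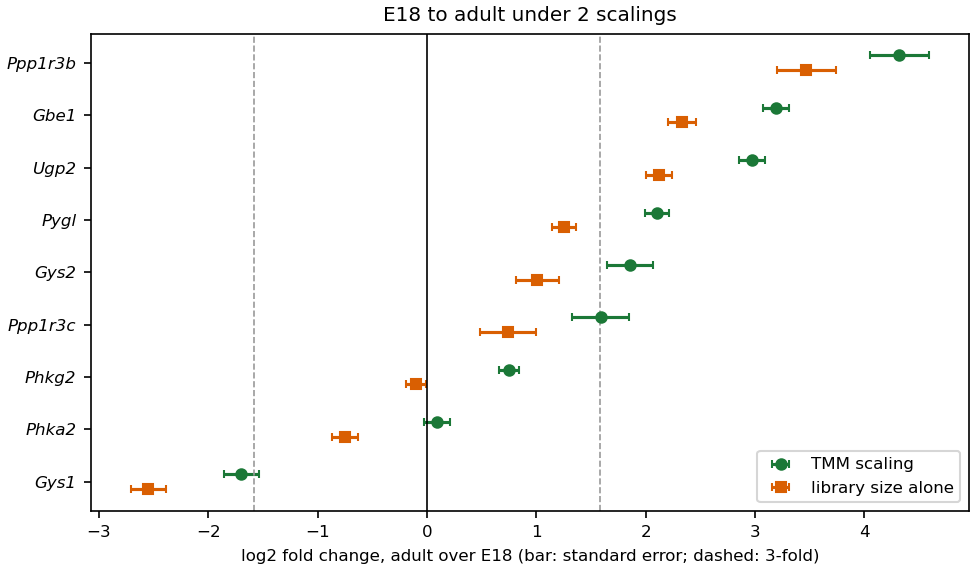
Log2 fold change of the 9 genes from E18 to adult (horizontal axis, bars for the standard error) with TMM scaling (circles) and at library size alone (squares), with dashed lines at 3-fold. Library size alone shifts every member to the left, Phka2 and Phkg2 change sign, and Gys1 is lower in adult under both.

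Of the targeting subunits, Ppp1r3b had the largest change of the 9 from E18 to adult, and neither subunit moved in 1 direction throughout. Ppp1r3b, known as the targeting subunit of liver (chromosome 8, 35375739 to 35388139, plus strand), had 28.8 and 21.9 CPM in the E18 samples, 499 and 362 by P14, 282 and 175 by P28 and 475 and 538 in adults. Every sample after birth was above both E18 samples, and both P28 samples were below those of P14 and of adult. It rose 16.9-fold from E18 to P14 (log2 4.08, standard error 0.27, edgeR adjusted p = 1.2e-06), fell by 0.91 on the log2 scale to P28 (standard error 0.24, edgeR adjusted p = 0.014) and rose 2.22-fold to adult (log2 1.15, standard error 0.24, edgeR adjusted p = 0.016). The total from E18 to adult was 20-fold (log2 4.32, edgeR adjusted p = 5.6e-07), and at library size alone the log2 value was 3.47.

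Ppp1r3c, a targeting subunit also expressed in muscle and other tissues (chromosome 19, 36731731 to 36736653, minus strand), had 21.9 and 19.6 CPM at E18 and 64.5 and 97.3 at P14. It had 90.8 and 158 CPM at P28 and 65.2 and 60 in adult. It rose 3.9-fold from E18 to P14 (log2 1.96, standard error 0.26, edgeR adjusted p = 0.00012), and by 1.09 on the log2 scale at library size alone. From P14 to P28 the fit gave 0.62 (standard error 0.25, edgeR adjusted p = 0.073), although the samples of these stages overlapped, and without P28 replicate 2 the value was 0.16 (edgeR adjusted p = 0.59). It also did not pass without P14 replicate 1 (0.35) or without either E18 sample (0.62, edgeR adjusted p = 0.11). From P28 to adult it fell by 0.99 on the log2 scale (standard error 0.25, edgeR adjusted p = 0.033), a call that was lost without P28 replicate 2 (-0.54, edgeR adjusted p = 0.17) or without either adult sample. Over the whole span it was 3.02-fold higher (log2 1.59, edgeR adjusted p = 0.00037), just past 3-fold. The log2 value of the whole span ranged from 0.71 to 1.67 over the alternative fits listed below. From P14 onwards the sample with more Ppp1r3b had less Ppp1r3c in each of the 3 duplicate pairs, while at E18 replicate 1 was the higher in both genes. The adult pair differed by only 1.13-fold for Ppp1r3b and 1.09-fold for Ppp1r3c, and 3 pairs are too few to set an opposite course apart from chance. The RPKM ratio of Ppp1r3b to Ppp1r3c was 0.836 and 0.708 in E18 livers, 4.9 and 2.36 by P14, 1.97 and 0.701 by P28 and 4.62 and 5.69 in adults.

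**Figure D3:**
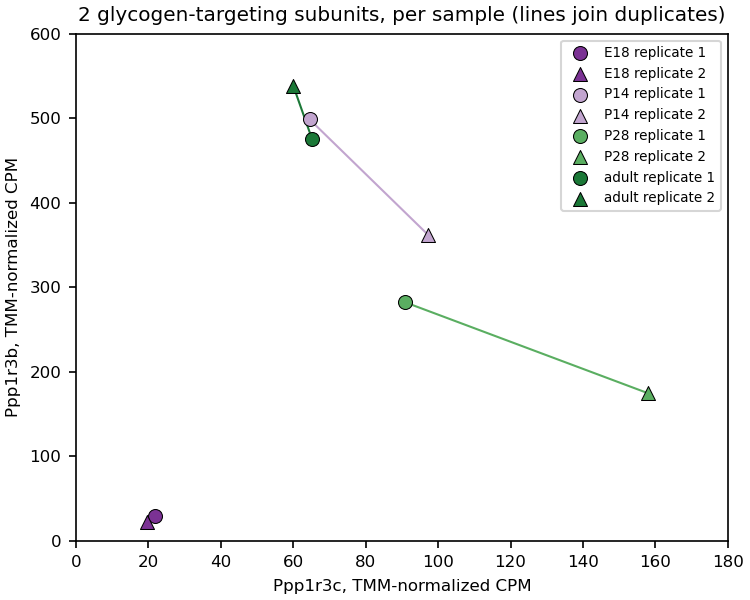
TMM-normalized CPM of Ppp1r3c (horizontal axis) and Ppp1r3b (vertical axis) in the 8 liver samples, coloured by stage, with circles for replicate 1, triangles for replicate 2 and a line joining the duplicates of a stage. The E18 samples lie near the origin, the adult samples lie high on the left at 60 and 65.2 CPM of Ppp1r3c, and P28 replicate 2 lies farthest to the right at 158 CPM.

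A share within a sample does not depend on the scaling between samples. In an exact permutation test over every way to split the 8 samples into 4 pairs, in which the smallest p is 0.0095, 5 such shares of summed RPKM were compared across stages, with p adjusted over the 5. Gys2 held 86.2% and 87.1% of synthase RPKM in E18 livers, 95.8% and 95.5% by P14, 97.5% and 98.1% by P28 and 98.7% in both adult samples (exact p = 0.0095, adjusted 0.0238). Pygl held 76.6% and 77.1% of phosphorylase RPKM in E18 livers, 94.7% and 94% by P14, 98.6% in both P28 samples, and 99.2% and 99.4% in adult (exact p = 0.0095, adjusted 0.0238), beside its brain form Pygb and muscle form Pygm. Both liver forms were thus the main form at E18 already, and gained 12 and 22.5 percentage points.

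Phka2 held 88.1% and 88.3% of the alpha subunit RPKM at E18 against 68.7% to 77.5% in the later samples, beside its muscle form Phka1 (exact p = 0.0476, adjusted 0.0794). All 6 later samples lay below both E18 samples. Phkg2 held 98.8% to 99.4% of the gamma subunit RPKM in every sample (exact p = 0.9143, adjusted 0.9143). Ppp1r3b held 45.5% and 41.5% of its sum with Ppp1r3c in E18 livers, 83.1% and 70.2% by P14, 66.4% and 41.2% by P28 and 82.2% and 85.1% in adults (exact p = 0.0667, adjusted 0.0833), and the P28 pair spanned both E18 values.

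**Figure D4:**
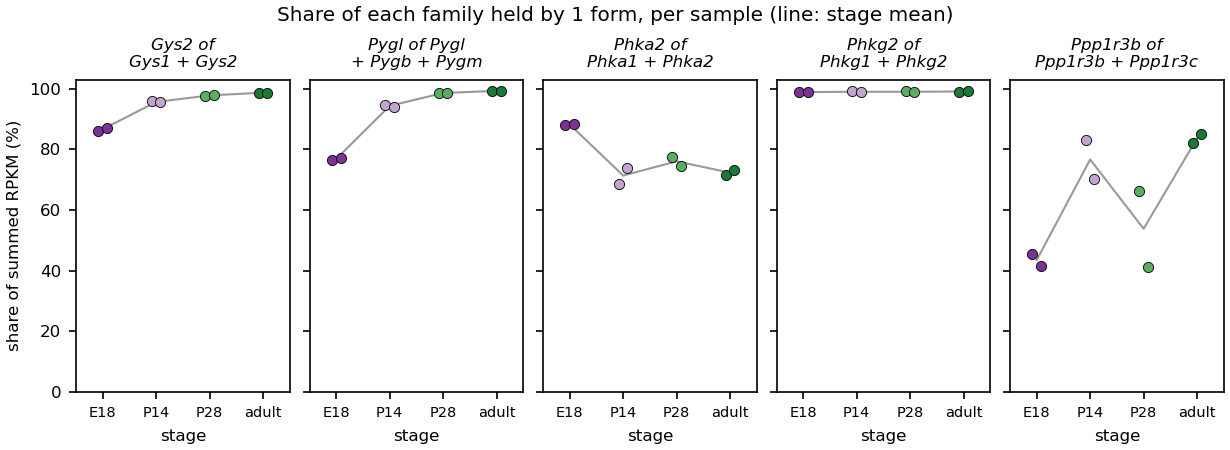
Percent of the summed RPKM of a family held by the named form (vertical axis, 0 to 100%) in each of the 8 liver samples, by stage, with a line through the stage means. The Gys2 and Pygl shares climb to 98.7% and 99.3% on average in adult, the Phka2 share is lower after E18, the Phkg2 share is flat, and the Ppp1r3b share rises, drops at P28 and rises again.

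Ranked by RPKM, which corrects for gene length, Pygl was the most abundant member at E18 (64.3 ± 3.62, SD, n = 2), P14 (123 ± 7.59) and P28 (140 ± 1.05). In adult Ugp2 (173 ± 18.9) and Pygl (151 ± 17.3) overlapped. Gys1 was the lowest member at every stage, from 5.96 ± 0.186 RPKM at E18 to 1 ± 0.218 in adult. At E18 the order after Pygl was Ugp2 and Gys2, which overlapped, then Phkg2, Ppp1r3c, and then Gbe1, Ppp1r3b and Phka2 at 8.05 to 8.94 RPKM, each overlapping the next. At P14 Ppp1r3b (82.5 ± 19.2) had moved up beside Ugp2 (83.7 ± 4.53), with overlap, and Gys2 and Ppp1r3c overlapped below them. At P28 Gys2, Ppp1r3b and Ppp1r3c overlapped in turn behind Ugp2, and Gbe1, Phkg2 and Phka2 followed without overlap. In adult Ppp1r3b (96.2 ± 10.5) and Gys2 (76.6 ± 19.7) overlapped, followed by Gbe1 (44.4 ± 4.39), Ppp1r3c (18.7 ± 0.707), Phkg2 (16.4 ± 0.162) and Phka2 (4.69 ± 0.5), none of which overlapped. The RPKM ratio of Pygl to Gys2 sets messenger RNA of phosphorylase against that of synthase, and no enzyme activity or glycogen was measured in these data. It was 1.62 and 1.71 in E18 livers, 3.99 and 4.07 by P14, 3.86 and 2.63 by P28 and 1.53 and 2.6 in adults, so the adult values reached down to those of E18.

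The genes whose log2 CPM profiles over the 8 samples lay closest to a member, among 8703 genes with a mean of at least 10 CPM, were taken for Gys2, Pygl and Ppp1r3c. For Gys2 they were Bnip3, Aqp11 and Map3k5, at Euclidean distances of 0.43, 0.503 and 0.55 log2 units. For Pygl they were Fam82b, 1810049H13Rik and Tmem30a at 0.169, 0.181 and 0.187. For Ppp1r3c they were Asap3, Slc24a6 and Rhod at 0.667, 0.705 and 0.755, so the closest profiles to Ppp1r3c were less close than those to Pygl. Each had its highest stage mean at P28, as Ppp1r3c did, which the choice by nearest profile makes likely. The duplicates of Ppp1r3c differed 1.51-fold at P14 and 1.74-fold at P28, those of Pygl 1.08-fold and 1.03-fold. At E18 and in adult the duplicates of both genes differed by at most 1.14-fold.

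The rest of the pathway was counted on 32 further genes in 8 lists, of which 31 were tested, since Ppp1r3a, the muscle targeting subunit, had 0 to 3 reads per sample. From E18 to adult 16 rose, 14 fell and Phkg1 did not pass, with 9 up and 6 down over 3-fold and a median of 0.45 against -0.11 over all genes. As shares of the 31, the falls were near those of all genes given above (43.8%, and 23.8% past 3-fold), while 39.5% of all genes rose and 16.8% rose past 3-fold. With library size alone, 12 rose and 16 fell, against 22.1% and 64.9% of all genes. Over the intervals, 12 rose and 10 fell from E18 to P14 (9 and 19 at library size alone), 9 rose and 11 fell from P14 to P28, and 3 rose and 4 fell from P28 to adult. The shares of all genes were 38.2% and 39.3% (18.6% and 66.8% at library size alone), 25.2% and 28.6%, and 7.94% and 13.2%, so most of these counts were about the background.

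The genes of glucose entry and release rose together, 4 of 4 over 3-fold from E18 to adult and also from E18 to P14, and 4 of 4 rose at library size alone in both. Of all genes, 16.8% and 13.8% rose over 3-fold in these comparisons, and 22.1% and 18.6% rose at library size alone. G6pc, the catalytic subunit that frees glucose for export, had 40 and 17 reads at E18, 0.288 and 0.139 CPM, against 252 and 672 CPM in adult (log2 11.05, standard error 0.73, edgeR adjusted p = 7.1e-07). Gckr, a regulator of glucose phosphorylation, the glucose transporter Slc2a2 and the glucose 6-phosphate transporter Slc37a4 had log2 values of 3.69, 3.14 and 3.17. The 3 hormone receptors rose as well, Gcgr of glucagon by 4.44, Adra1b of adrenaline by 3.05 and Insr of insulin by 1.30 on the log2 scale, also at library size alone.

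The initiation list went mostly the other way, 3 of 4 down over 3-fold from E18 to adult, as were 23.8% of all genes. Gyg, glycogenin, the protein primer on which a glycogen chain starts, had 21.9 and 26.3 CPM in E18 livers, 17.8 and 18.7 by P14, 12.7 and 13.5 by P28 and 6.51 and 5.44 in adults (log2 -2.01, standard error 0.13, edgeR adjusted p = 7.4e-07), and fell at library size alone too. The RPKM ratio of Gys2 to Gyg was 2.01 and 1.76 at E18 and 30.2 and 24.4 in adult. Pgm2l1, which makes glucose 1,6-bisphosphate, fell by 2.30, and of the phosphoglucomutases listed as Pgm1 and Pgm2 the first fell by 1.67 and the second rose by 1.01. The RefSeq table gives each of these names as a synonym of the other gene, so which protein each row stands for was not settled.

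Among the muscle and brain forms, Pygb had 45.5 and 48.5 CPM at E18 and 3.16 and 2.49 in adult (log2 -4.06, standard error 0.14, edgeR adjusted p = 1.7e-08), with its step over 3-fold between P14 and P28 (log2 -2.03). Pygm fell by 0.85 on the log2 scale, Phka1 rose by 1.60, and both kept these directions at library size alone. Of the kinase partners, Phkb, the beta subunit, had 0.81 with TMM but -0.04 at library size alone, and Calm3, a calmodulin gene, was the lowest at -1.42. Of lysosomal breakdown and tethering, Stbd1, which tethers glycogen to membranes, rose by 1.5 on the log2 scale, while the acid glucosidase Gaa had 0.45 with TMM and -0.41 at library size alone. Of the tested phosphatase 1 subunits 6 of 7 fell, where 43.8% of all genes did (64.9% at library size alone), with log2 values of -0.73, -0.94 and -1.37 for the catalytic subunits Ppp1ca, Ppp1cb and Ppp1cc and of -2.15 and -1.92 for the targeting subunits Ppp1r3d and Ppp1r3g, and with at most 3.65 CPM for Ppp1r3d and Ppp1r3g in any sample. Ppp1r3g had 3.65 and 1.23 CPM at E18 and 0.98 and 0.331 in adult, and its call was lost without E18 replicate 1 (-0.92, edgeR adjusted p = 0.17) or without adult replicate 2 (-1.32, edgeR adjusted p = 0.1), fits added after seeing the data. Ppp1r3e was the exception, at 0.87 with TMM and 0.02 at library size alone. Of the regulators, laforin (Epm2a) rose by 2.48 and malin (Nhlrc1) by 1.64, the synthase kinase Gsk3a had -0.49, and Gsk3b had 0.19 with TMM but -0.66 at library size alone. Epm2a was low throughout, with 38 and 42 reads at E18 and at most 1.93 CPM in any sample.

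**Figure D5:**
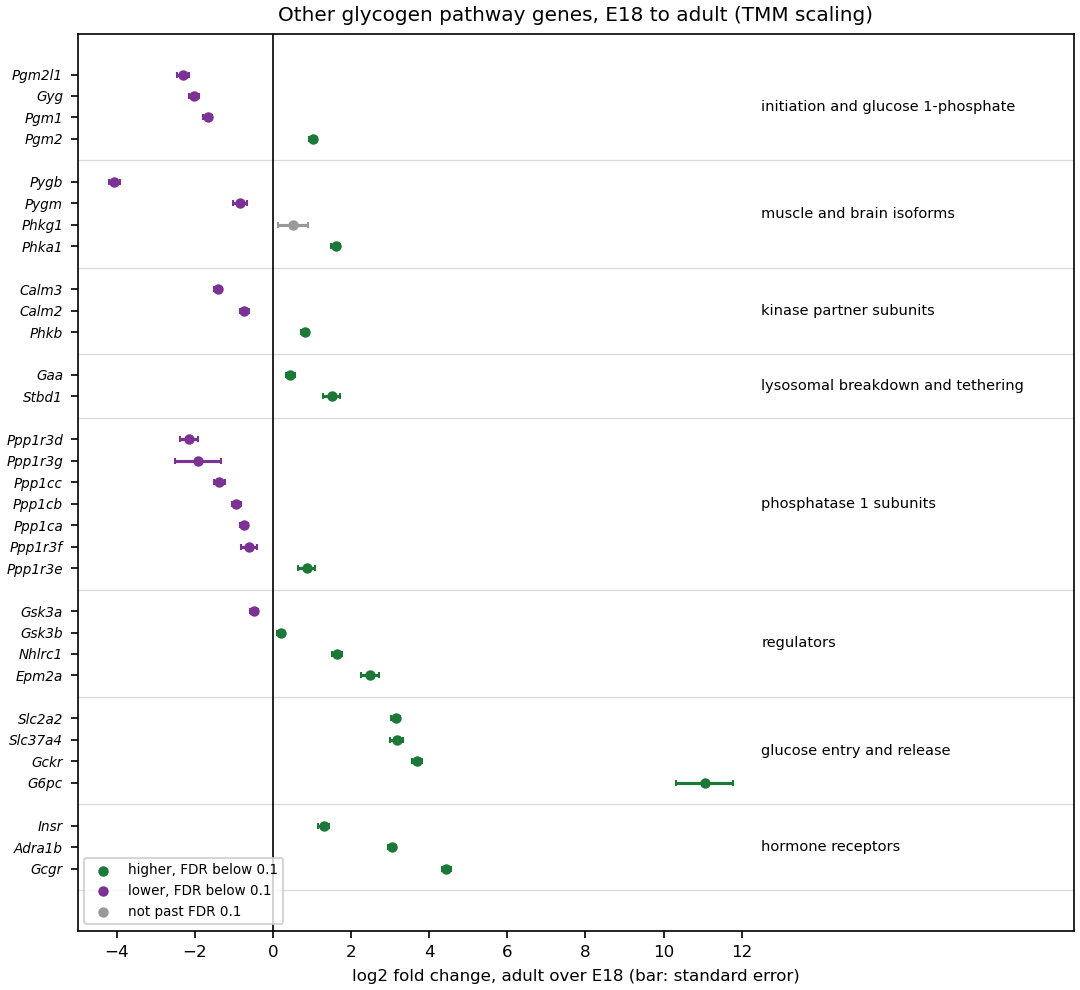
Log2 fold change from E18 to adult with TMM scaling (horizontal axis, bars for the standard error) of the 31 tested genes in the 8 pathway lists, green where higher and purple where lower where the edgeR false discovery rate was below 0.1, and grey where it was not. G6pc lies farthest to the right at 11.05, followed by Gcgr at 4.44, and Pygb lies farthest to the left at -4.06.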

How the data were processed

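The files hold, per sample and gene symbol, a raw read count and an RPKM, both computed and deposited by the authors, RPKM being reads scaled for transcript length and for mapped reads. Aligner and counter are not given in the sources used here. The submitters' processing notes name mm9. The labels name Trizol for RNA isolation, the Methods the RNeasy kit. Positions and upstream sequence came from GENCODE M21 and RefSeq on GRCm38, matched by symbol, which was not the build of the files.

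Counts were filtered with filterByExpr, scaled by TMM and fitted over all 8 samples with 1 coefficient per stage by the quasi-likelihood test of edgeR (version 4.0.16), with Benjamini-Hochberg adjustment over 17081 genes, a false discovery rate below 0.1 and a 3-fold threshold. This replaced the DESeq of the study. The script was tested on simulated data. Alternatives were median-ratio scaling, library size alone, no filter, at least 10 counts in every sample, DESeq2 (version 1.42.0), limma (version 3.58.1) on log2(RPKM + 0.1), only the 2 stages compared, a replicate block, each sample left out, a false discovery rate of 0.05 and a 2-fold threshold. Software was R 4.3.3, Python 3.11.15, numpy 2.4.6, pandas 2.3.3 and matplotlib 3.10.9.

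The members and gene lists were chosen with earlier results of these data known. All 9 members are named. Of the pathway lists, the genes past 3-fold in any comparison and the extremes of each list are named, and a few others, chosen after their values were seen, where scaling turned their sign or to complete a group. The lists leave out 3 genes that are not reported here. Nearest profiles are the 3 tested genes at the smallest Euclidean distance between centred log2 CPM profiles. The labels do not say that the 2 samples of a stage came from separate animals, whereas the paper speaks of biological duplicates, so p-values measure the spread between these samples.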

Additional observations from a re-analysis of the deposited data

How the results depend on the processing

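At this depth every member had at least 255 reads in a sample, so 2 samples per stage limit these results more than counting does. Of 288 member log2 fold changes under alternatives that kept all samples, 259 kept direction and call, 10 lost the call, 3 gained it and 16 changed sign. Of 288 with a sample left out, 249 kept both, 30 lost the call, 2 gained it and 7 changed sign. The causes were not tested, apart from the shift of E18 that the scaling itself makes.

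At library size alone and with limma on log2(RPKM + 0.1), members decreased from E18 to P14 went from 1 to 3, increased over 3-fold from 4 to 1, and decreased over 3-fold from 0 to 1. From E18 to adult, decreased members went from 1 to 2 and members increased over 3-fold from 6 to 3. Of all genes, 66.8% fell from E18 to P14 both at library size alone and with limma. From E18 to adult 64.9% fell at library size alone and 65.7% with limma. The share of all genes past 3-fold was not counted in these fits. A 2-fold threshold gave 1 decreased member from E18 to P14, where 3-fold gave 0. It gave 1 increased from P14 to P28 and 1 increased from P28 to adult, again where 3-fold gave 0. The share of all genes past 2-fold was not counted, so these 2-fold counts cannot be set against it.

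The sign changed at library size alone and with limma, in this order, for Gys2 from E18 to P14 (-0.35 and -0.34), Phka2 from E18 to P14 (-0.86 and -0.83), Phkg2 from E18 to P14 (-0.64 and -0.63), Phkg2 from P28 to adult (0.01 and 0), Phka2 from E18 to adult (-0.75 and -0.77) and Phkg2 from E18 to adult (-0.10 and -0.13). Phka2 from E18 to P14 was -0.03 with median-ratio scaling and with DESeq2 and -0.09 with at least 10 counts in every sample, which gave -0.04 from E18 to adult.

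With a sample left out, Phka2 from E18 to P14 ranged from -0.10 to 0.14, Gys1 from P28 to adult from -0.25 to 0.24, Pygl from P28 to adult from -0.02 to 0.17 and Phkg2 from P28 to adult from -0.09 to 0.05. Members changed from P14 to P28 ranged from 4 to 7, increased from 2 to 5 and decreased from 1 to 2, while over all genes the shares ranged from 17.6% to 26.2% up and from 20.6% to 29.2% down. Members changed from P28 to adult ranged from 3 to 5 and decreased from 0 to 1, with 0 without P28 replicate 2 or either adult sample. Members decreased over 3-fold from E18 to adult ranged from 0 to 1. The gain of the Phkg2 share from E18 to adult ranged from -0.138 to 0.466 percentage points.

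Samples of the same replicate number did not deviate in a common direction over the stages (r of -0.325 to 0.116 over 6 pairs of stages). The value of -0.325 was that of P28 and adult, whose duplicates differed in part alike but with the replicate numbers reversed. A factor shared between samples under other numbers was not tested. With the replicate block Phka2 from P14 to P28 was 0.26 (edgeR adjusted p = 0.12), the only member call it changed.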
